A study of Danio rerio with 1152 samples.

Results

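MSGN1-positive cells are the cells of the 50% epiboly zebrafish embryo in which the transcription factor gene MSGN1 had been read at least 2 times while the endoderm gene SOX32 and the organizer gene GSC had not been read at all. The members were chosen by these measured counts of MSGN1, SOX32 and GSC, and they were 70 of 1000 kept cells. The series profiled single cells of wild-type embryos from TL/AB in-crosses, with no treatment and no mutation named in the labels. Caps of blastoderm were freed of yolk by hand, dissociated, and single cells were picked into 1152 wells, spread evenly over 3 experimental batches. Expression is in UMIs, unique molecular identifiers, which count tagged cDNA molecules at the 5′ end of transcripts. A well was kept when it had at least 2000 detected genes. The batch was taken as the replicate. Whether batches stand for separate clutches, and how many embryos each pooled, is not given in the labels. The p-values measure how far the difference between classes varied from batch to batch, and that spread may be technical.

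MSGN1 (mesogenin 1) encodes a basic helix-loop-helix transcription factor of the paraxial mesoderm, the tissue that forms the somites. At this stage the mesoderm arises in a ring at the blastoderm margin, where Nodal, FGF and Wnt signals maintain T-box genes such as TA (the zebrafish Brachyury, also called ntla) and TBX16 (spadetail). Margin cells that enter the mesoderm lose the ectodermal SoxB1 genes, express Snail genes and migrate inward, and they later separate into axial, paraxial, intermediate, heart and blood precursors.

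The members were compared with 385 reference cells, which had TA at 2 or more UMIs and MSGN1 at 0, and with 492 remaining cells, which had TA at 0 or 1 UMI and MSGN1 at 0. Both comparisons use the same members and are not independent of each other. Batches 1, 2 and 3 gave 14, 11 and 45 members. Members made up 4.03% of the kept cells of batch 1, with a Wilson 95% interval from 2.42% to 6.66%. In batch 2 the share was 3.72%, with an interval from 2.09% to 6.53%, and in batch 3 it was 12.6%, with an interval from 9.56% to 16.5%. The interval of batch 3 did not overlap those of batches 1 and 2, and these intervals cover counting error only. On plates 5, 6, 7 and 8 of batch 1 there were 3, 4, 3 and 4 members. Median depth per cell was 41376.5 UMIs in members, 49509 in reference cells and 45372.5 in remaining cells, and in batch 3 it was 34002 in members and 39873 in reference cells. In the reference, a pair of wells from batches 1 and 2 differed by less than sampling noise, and without that pair 48 of the 49 calls described below remained.

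**Figure D1:**
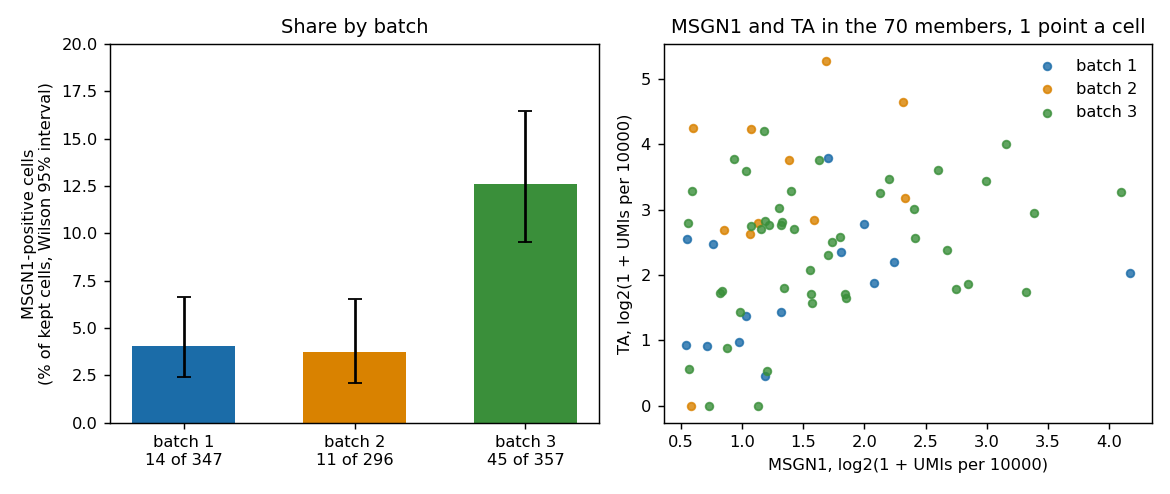
The left panel plots the percentage of kept cells that were MSGN1-positive in each batch, with Wilson 95% intervals, and the bar of batch 3 stands at 12.6% against 4.03% and 3.72%. The right panel plots TA against MSGN1 as log2(1 + UMIs per 10000) in the 70 members, 1 point a cell coloured by batch, and most members carry both transcripts.

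The values that chose the members are given as a description and were not tested. MSGN1 ranged from 2 to 42 UMIs in members, with a median of 7. Its level was 1.90, 1.54 and 2.70 UMIs per 10000 in batches 1, 2 and 3. TA, which the rule did not ask of the members, was at 2 or more UMIs in 66 of 70, with a median of 20 UMIs in members and 10 in reference cells. TA stood at 4.00, 10.4 and 5.60 UMIs per 10000 in members of batches 1, 2 and 3 and at 2.33, 3.63 and 3.22 in reference cells, so members were above the reference in each batch.

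Cells just outside and just inside the threshold were compared by their levels of OSR1 and SOX3. The 11 cells with a single MSGN1 UMI and neither SOX32 nor GSC had OSR1 at 3.05 and SOX3 at 17.5 UMIs per 10000. The 6 members with 2 MSGN1 UMIs had OSR1 at 0.754 and SOX3 at 15.7, and the 5 members with 3 UMIs had OSR1 at 2.53 and SOX3 at 15.8. SOX3 was thus similar on both sides of the threshold, and OSR1 varied without an order.

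The name mesoderm progenitor is described here by 4 other markers. These were chosen with earlier results of these data known, so their detection is no independent check of the name. OSR1, a zinc finger gene of intermediate mesoderm, was detected in 63 of 70 members. MESPAB and MESPAA, basic helix-loop-helix genes of paraxial mesoderm segmentation, were detected in 48 and 23 members, and FOXC1A, a forkhead gene needed for somite formation, in 24. Of the 70 members, 12 carried all 4 markers, 18 carried 3, 20 carried 2, 16 carried 1 and 4 carried none. The 4 members without any of them had 2 to 7 MSGN1 UMIs and 2 to 9 TA UMIs. After each cell was thinned to 10000 UMIs, OSR1 was detected in 80% of members and 27.6% of reference cells, against 90% and 40.5% before thinning, and MESPAB in 57.1% and 11.2%, against 68.6% and 18.7%. Each of the 4 markers was thus found in the class, and most members lacked at least 1 of them.

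TBX24, which acts in segmentation of the presomitic mesoderm, HAND2 of the heart and TAL1 of the blood were each detected in 0 of 70 members, which allows a share of up to 4.29% of cells with a UMI. These genes were rare in the reference too, with 5, 2 and 7 of 385 cells.

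Against reference cells, 49 of 8410 tested genes passed an adjusted p of 0.05 (edgeR quasi-likelihood test on sums per class and batch, batch as a block, Benjamini-Hochberg adjustment), 0.583% of those tested. Members were higher for 40 genes (0.476%) and lower for 9 (0.107%). Higher genes included paraxial and lateral mesoderm regulators, Nodal and Wnt ligands, the apelin receptor and the retinoic acid enzyme ALDH1A2, and the 9 lower genes included SOX3 and SOX19A of the ectoderm, both CXCR4 receptors and the notochord gene NOTO. All 49 had the same direction in the 3 batches, and for 47 the batch values of the classes did not overlap, which held for 12.6% of all genes tested. A total of 441 genes had an unadjusted p under 0.05. Batch 3 holds most members, and without it 21 of the 49 calls remained, with 18 higher and 3 lower.

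Among the paraxial and segmentation genes, 6 of 20 tested members of the list rose and none fell, and 13 had a positive difference. Genes of a list are said to rise or fall only where they passed. The median log2 difference of this list was 0.75, against -0.10 for all genes tested, of which 0.476% were called higher. The list, which holds MESPAA and MESPAB, was drawn up with earlier results of these data known. MESPAB stood at 1.52, 2.36 and 2.43 UMIs per 10000 in members of batches 1, 2 and 3 and at 0.303, 0.333 and 0.244 in reference cells. The groups did not overlap, and the log2 difference was 2.87 (SE 0.28, adjusted p = 3.53e-05 in edgeR). MESPAA was at 0.339, 2.78 and 0.929 in members and at 0.129, 0.0449 and 0.0795 in reference cells, a log2 difference of 3.65 (SE 0.68, adjusted p = 0.0181 in edgeR). Its batches spread widely, and 60.0% of its UMIs in members came from 5 cells. Without batch 3 the log2 difference was 3.69 and did not pass (SE 1.04, adjusted p = 0.759 in edgeR). With SOX32- and GSC-positive cells left out of the reference as well, the difference was 3.47, close to the 3.65 with them, and with a larger SE of 0.82 it did not pass (adjusted p = 0.0908 in edgeR). FOXC1A did not pass against the reference, with 0.186, 0.257 and 0.468 in members, 0.0445, 0.103 and 0.0643 in reference cells and an adjusted p of 0.755 in edgeR.

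The T-box genes of this group differed in size. The gene listed as TBX6 was at 1.24, 1.06 and 2.08 UMIs per 10000 in members and at 0.304, 0.219 and 0.612 in reference cells, with a log2 difference of 2.05 (SE 0.30, adjusted p = 0.00202 in edgeR). The reference annotation gives tbx6 as an older name of tbx16l, so which T-box gene this row counts is uncertain, and the call was lost without batch 3. TBX16, a regulator of paraxial mesoderm migration, was at 3.38, 7.65 and 4.26 in members and at 2.52, 3.35 and 2.88 in reference cells. Its log2 difference of 0.77 (SE 0.16, adjusted p = 0.0357 in edgeR) was the smallest of those named here among mesoderm genes, and it passed under 9 of the 17 alternatives run, without batch 2 and without batch 3 being among those under which it did not. SNAI1A, a Snail repressor of cell adhesion, was at 12.4, 15.6 and 15.4 in members and at 5.91, 6.16 and 6.80 in reference cells, a log2 difference of 1.24 (SE 0.10, adjusted p = 2.84e-06 in edgeR).

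Genes of lateral and intermediate mesoderm formed the list with the highest median. Of 12 tested members, 5 rose and none fell, and the median log2 difference was 1.54. Of all genes tested 0.476% were called higher, with a median of -0.10. The list was drawn up with earlier results of these data known. OSR1 stood at 5.12, 9.09 and 6.75 UMIs per 10000 in members and at 0.904, 1.59 and 0.949 in reference cells. This difference of 2.66 on the log2 scale (SE 0.14) had the lowest adjusted p of the comparison, 6.15e-08 in edgeR. GATA5, a zinc finger factor of heart and endoderm, was at 3.45, 4.24 and 4.08 in members and at 0.530, 0.605 and 0.553 in reference cells, a log2 difference of 2.84 (SE 0.18, adjusted p = 3.79e-07 in edgeR). APLNRB, an apelin receptor that heart precursors need for migration, was at 3.17, 5.19 and 10.3 in members and at 0.924, 1.69 and 1.47 in reference cells. The log2 difference was 2.12 (SE 0.20, adjusted p = 1.99e-05 in edgeR), and batch 3 stood above batches 1 and 2. LHX1A, a LIM homeobox gene, was at 0.657, 0.868 and 1.32 in members and at 0.206, 0.225 and 0.377 in reference cells, with a log2 difference of 1.85 (SE 0.38, adjusted p = 0.0363 in edgeR) that passed under 11 of 17 alternatives and not without batch 3.

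ALDH1A2, which makes retinoic acid, was the single gene of 12 tested retinoic acid and Hox genes that rose. Of all genes tested 0.476% were called higher. The list had 3 positive differences and a median log2 difference of -0.12, against -0.10 for all genes tested. ALDH1A2 was at 1.38, 1.78 and 1.59 UMIs per 10000 in members and at 0.220, 0.238 and 0.286 in reference cells. The log2 difference was 2.71 (SE 0.31, adjusted p = 0.000151 in edgeR), and members of the 3 batches lay close together.

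**Figure D2:**
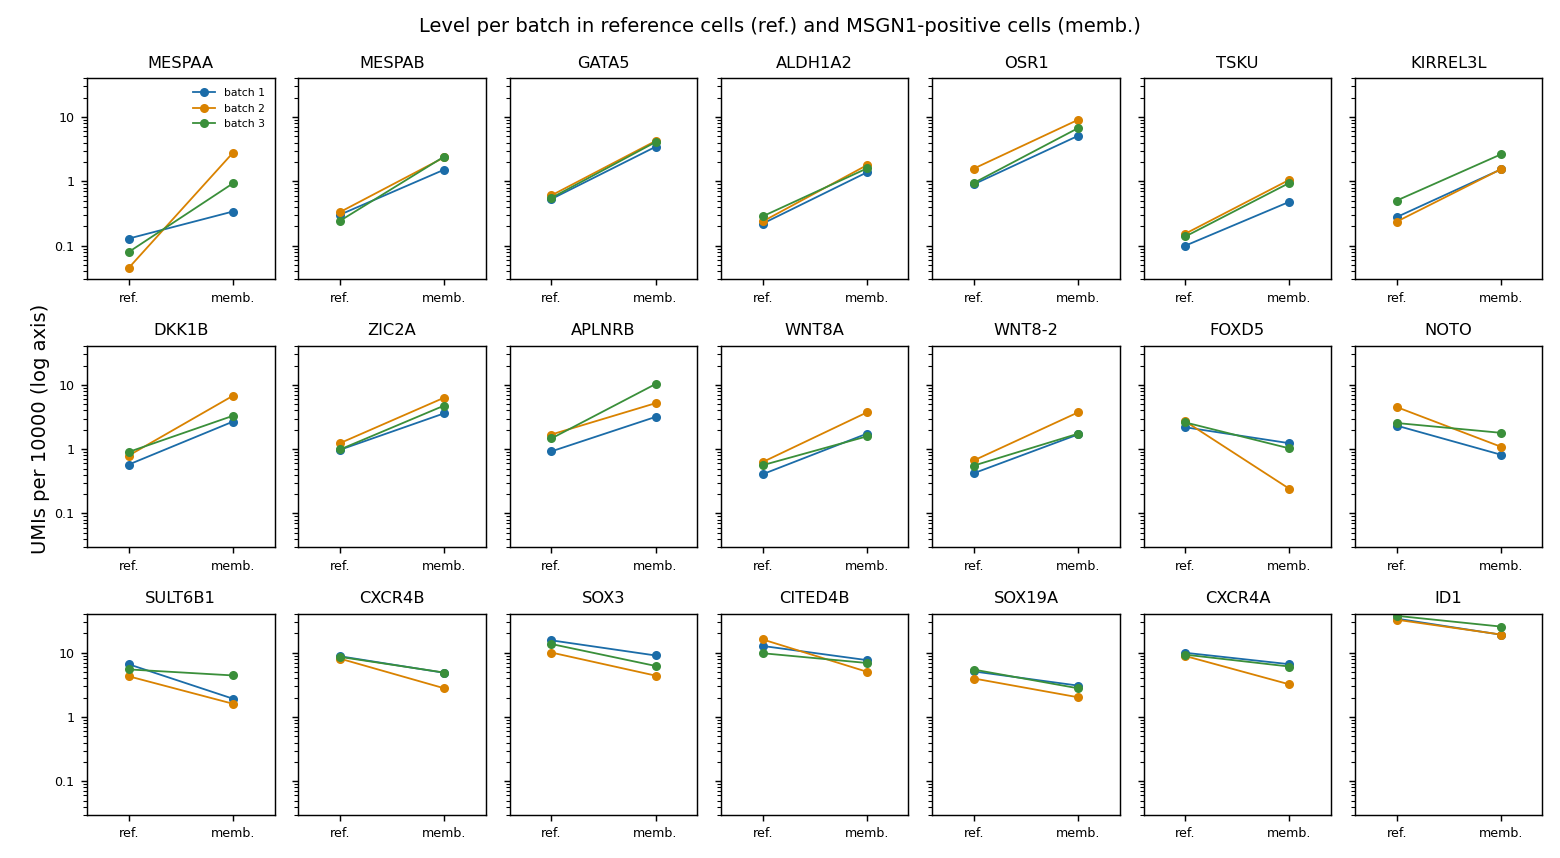
UMIs per 10000 on a log axis in reference cells and in MSGN1-positive cells, 1 line a batch, for the 12 genes with the highest and the 9 with the lowest log2 difference among those that passed. Every line rises in the panels from MESPAA to WNT8-2 and falls in those from FOXD5 to ID1.

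Some signal genes of the margin were higher, and most of those tested did not pass. In the Nodal list 4 of 14 tested genes rose, in the FGF list 2 of 19 and in the Wnt list 4 of 27, where WNT8A and WNT8-2 share a locus, and none fell. The median log2 differences of these lists were 0.54, 0.41 and 0.51, and 0.476% of all genes tested were called higher. In the list of BMP and ventral genes, 1 of 25 fell and none rose. NDR1 and NDR2, the Nodal ligands squint and cyclops, had log2 differences of 1.86 (SE 0.38, adjusted p = 0.0384) and 1.69 (SE 0.32, adjusted p = 0.0214) in edgeR. NDR1 was at 0.766, 1.22 and 0.935 UMIs per 10000 in members and at 0.269, 0.367 and 0.201 in reference cells, and NDR2 at 1.34, 1.09 and 1.38 against 0.314, 0.371 and 0.561. Neither gene overlapped between the classes, both calls were lost without batch 3, and that of NDR2 also without batch 1. NDR1 passed under 10 of 17 alternatives and NDR2 under 13. MIXL1, a mesendoderm homeobox gene downstream of Nodal, was at 4.75, 10.1 and 7.08 in members and at 1.42, 2.10 and 1.75 in reference cells, a log2 difference of 2.05 (SE 0.14, adjusted p = 7.71e-07 in edgeR).

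WNT8A, the ventrolateral Wnt ligand of the margin, was at 1.74, 3.73 and 1.58 UMIs per 10000 in members and at 0.408, 0.631 and 0.563 in reference cells. The log2 difference was 2.09 (SE 0.26, adjusted p = 0.000281 in edgeR). WNT8-2 is annotated on the same locus, had 2085 UMIs in all kept cells where WNT8A had 2054, and gave a log2 difference of 2.09 as well, so these rows are not separate evidence. DKK1B, a secreted Wnt antagonist, was at 2.68, 6.76 and 3.30 in members and at 0.576, 0.796 and 0.905 in reference cells, with a log2 difference of 2.43 (SE 0.22, adjusted p = 1.44e-05 in edgeR). WNT11, a ligand of the gastrulation movements, was at 5.82, 17.6 and 7.62 in members and at 4.94, 5.94 and 3.85 in reference cells. These values overlapped, the log2 difference was 0.98 (SE 0.18, adjusted p = 0.0145 in edgeR), and the call was lost without batch 3. The FGF genes that rose were DUSP4, a MAP kinase phosphatase, and FLRT3, a transmembrane partner of FGF receptors, with log2 differences of 1.76 (SE 0.21) and 2.07 (SE 0.21), and the call of DUSP4 was lost without batch 3.

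Genes of movement and of other tissues were among the higher genes. FSCN1A, an actin-bundling fascin, was at 20.4, 22.3 and 20.9 UMIs per 10000 in members and at 9.62, 10.8 and 8.89 in reference cells, a log2 difference of 1.17 (SE 0.08, adjusted p = 1.14e-06 in edgeR). KIRREL3L, named for an adhesion family, was at 1.53, 1.54 and 2.63 against 0.278, 0.236 and 0.502, and TSKU, named for the secreted protein Tsukushi, at 0.482, 1.06 and 0.948 against 0.0998, 0.153 and 0.139. Their log2 differences were 2.56 (SE 0.27) and 2.65 (SE 0.46), and both calls were lost without batch 3. ZIC2A and IRX7, which are known as neural genes and were placed in the ectoderm list, rose by 2.21 (SE 0.16) and 1.89 (SE 0.23) on the log2 scale. ZIC2A was at 3.61, 6.33 and 4.77 in members and at 0.978, 1.24 and 0.989 in reference cells. Of 6 tested yolk layer genes 1 was called higher, where 0.476% of all genes tested were. The median log2 difference of this list was -1.38, against -0.10 for all genes tested. The gene that passed, the apolipoprotein APOC1L, was at 6.98, 10.5 and 11.95 against 5.57, 4.36 and 6.59. Its log2 difference was 0.86 (SE 0.14) and did not pass without batch 3.

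Every one of the 9 lower genes is named here. SOX3, a SoxB1 factor of the early ectoderm, was at 9.06, 4.403 and 6.23 UMIs per 10000 in members and at 15.6, 10.1 and 13.7 in reference cells. It fell by 0.99 on the log2 scale (SE 0.11, adjusted p = 7.02e-05 in edgeR). SOX19A, another SoxB1 gene, was at 3.08, 2.02 and 2.79 against 5.11, 3.97 and 5.46 and fell by 0.85 (SE 0.14, adjusted p = 0.00534 in edgeR). In the ectoderm list 3 of 22 tested genes fell, 2 rose, and the median log2 difference was -0.63. Of all genes tested, 0.107% were called lower and 0.476% higher. The chemokine receptors CXCR4B and CXCR4A fell by 1.01 (SE 0.14) and 0.83 (SE 0.15). CXCR4B was at 4.87, 2.80 and 4.91 in members and at 8.81, 8.08 and 8.61 in reference cells, and CXCR4A at 6.62, 3.21 and 6.09 against 9.98, 8.88 and 9.32. These receptors are related genes, and whether their counts share reads was not examined. How the authors' counting treats shared reads is not given in the sources used here.

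NOTO, the notochord homeobox gene, was at 0.821, 1.09 and 1.80 UMIs per 10000 in members and at 2.33, 4.52 and 2.55 in reference cells. It fell by 1.28 on the log2 scale (SE 0.25, adjusted p = 0.0235 in edgeR). The rule removes SOX32- and GSC-positive cells from the members and not from the reference. With them left out of both, the log2 difference of NOTO was -1.18 (adjusted p = 0.0535 in edgeR), and with TA at 2 or more also asked of the members it was -1.36 (adjusted p = 0.0451 in edgeR). NOTO passed under 13 of 17 alternatives and was detected in 46 of 70 members. FOXD5, a forkhead gene, fell by 1.64 (SE 0.35, adjusted p = 0.0494 in edgeR), the call nearest to the threshold. FOXD5 passed under 10 of 17 alternatives. Those under which it was lost include leaving out batch 3 and leaving out the nearly identical pair of wells. CITED4B, a transcription cofactor, fell by 0.91 (SE 0.16), SULT6B1, a sulfotransferase whose batch values overlapped, by 1.10 (SE 0.21) and ID1, a helix-loop-helix inhibitor that answers BMP, by 0.67 (SE 0.07). ID1 was at 19.1, 19.2 and 25.5 in members and at 33.95, 32.6 and 37.5 in reference cells. SULT6B1 passed under 13 of 17 alternatives. Without batch 3, SOX3, SOX19A, CXCR4A, CXCR4B, CITED4B and FOXD5 did not pass, and without batch as a block none of the 9 lower genes passed.

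**Figure D3:**
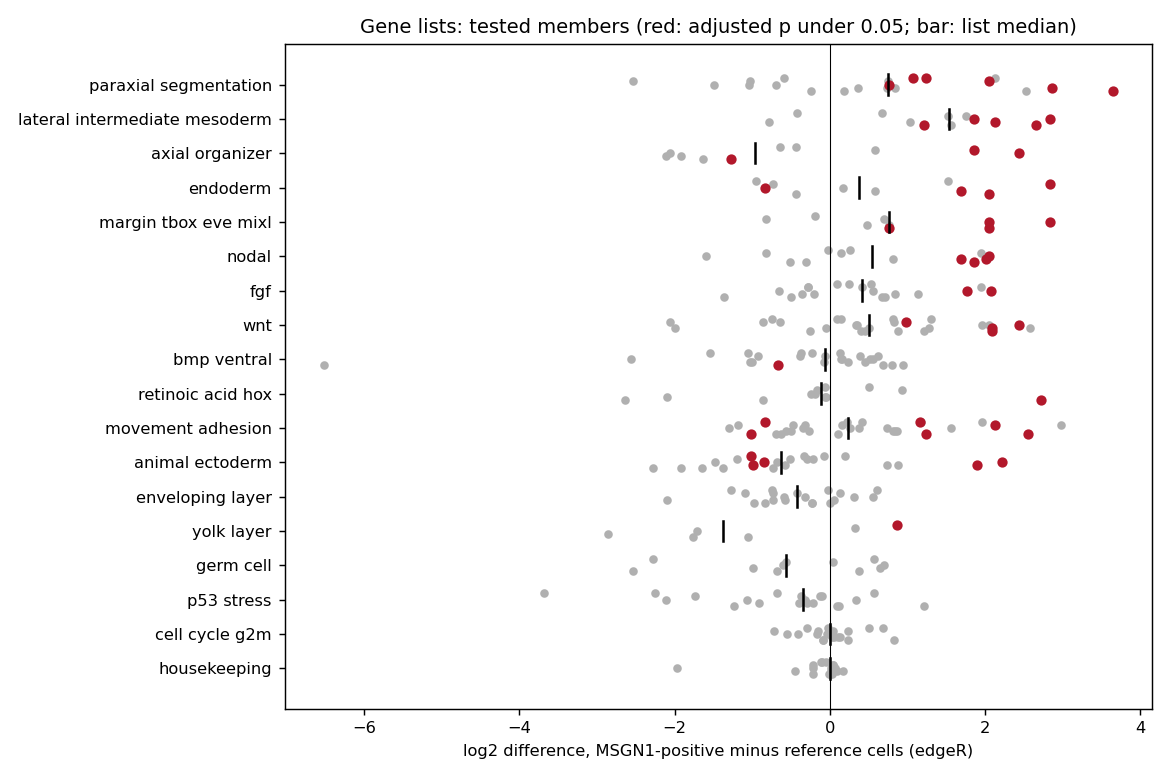
The log2 difference of MSGN1-positive minus reference cells for each tested gene of 18 lists, with genes that passed an adjusted p of 0.05 in red and the list median as a bar. The lateral and intermediate mesoderm list has the highest median, 1.54, and the housekeeping list lies at 0.00.

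In the endoderm list 3 of 10 tested genes rose (GATA5, MIXL1 and NDR2, which other lists hold too) and CXCR4A fell. In the organizer list 2 of 10 rose (DKK1B and LHX1A) and NOTO fell. Over all genes tested, 0.476% were called higher and 0.107% lower. None of 21 enveloping layer genes, 11 germ cell genes, 20 p53 and stress genes, 20 cell cycle genes and 18 housekeeping genes passed. This does not show that they were equal. In simulated sums of this comparison, 0% of 1.5-fold changes, 4% of 2-fold, 46% of 4-fold and 92% of 8-fold changes were recovered. The simulation gave every gene the same dispersion, 0.176, so these shares do not hold for genes that varied less. ID1, for example, passed in the data with a 1.59-fold difference. The housekeeping genes EEF1A1L1 and HNRNPA0L had log2 differences of 0.02 (SE 0.06) and -0.01 (SE 0.05). KRT18, a keratin of the outer layer, was at 3.66, 2.81 and 4.56 UMIs per 10000 in members and at 6.32, 4.67 and 4.21 in reference cells (adjusted p = 0.85 in edgeR). The 5 enveloping layer markers together ranged from 5.72 to 8.29 in members and from 8.56 to 12.3 in reference cells, so reference cells were higher, and the part of this in the results was not tested. The 4 organizer markers other than GSC ranged from 1.09 to 2.04 in members, where NOG1 was at 0, and from 3.06 to 6.20 in reference cells. The rule takes GSC-positive cells out of the members alone, and in the reference cells without a UMI of SOX32 or GSC these markers ranged from 2.82 to 5.47. The 4 endoderm markers other than SOX32 ranged from 7.86 to 10.3 in members and from 9.63 to 10.6 in reference cells. This sum holds opposite differences. The mean of the batches was 3.92 against 0.563 for GATA5 and 5.31 against 9.39 for CXCR4A. The 4 yolk layer markers ranged from 3.65 to 5.27 in members, with APOA1B at 0, and from 3.08 to 4.06 in reference cells. The 4 ectoderm markers ranged from 6.49 to 12.5 in members and from 14.2 to 21.2 in reference cells, and the 4 germ cell markers from 2.79 to 4.13 and from 2.59 to 3.14. The parts of these marker lists in the results were not tested.

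TA was higher in members than in the reference, and cells with TA at 10 or more UMIs in both classes were therefore compared as well, a choice made after the data were seen. In that comparison 28 genes were higher and 9 lower, and 36 of the 49 calls remained. OSR1, MESPAB, GATA5, ALDH1A2, APLNRB, WNT8A, DKK1B, MIXL1, SNAI1A and SOX3 were among those that remained. MESPAA, TSKU, LHX1A, NDR1, NDR2, TBX16, WNT11 and SULT6B1 were among those that no longer passed.

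Against the remaining cells, mesoderm and margin genes were higher in members. These cells were chosen to have at most 1 TA UMI, and most members carried more. Higher genes of the margin therefore follow in part from how the classes were chosen. Of 8045 tested genes, 92 passed (1.14%), with 72 higher (0.895%) and 20 lower (0.249%), and 510 had an unadjusted p under 0.05. The batch values did not overlap for 89 of the 92, against 14.6% of all genes tested. ALDH1A2 was at 1.38, 1.78 and 1.59 UMIs per 10000 in members and at 0.00607, 0.00106 and 0.0377 in remaining cells, which held 24 UMIs of it in all. Its log2 difference was 7.28 (SE 0.68, adjusted p = 1.53e-05 in edgeR). MESPAB, OSR1 and WNT8A differed by 5.42 (SE 0.36), 4.78 (SE 0.24) and 5.51 (SE 0.45). FOXC1A passed here, at 0.0121, 0.0160 and 0.0178 in remaining cells. Its log2 difference was 4.23 (SE 0.86, adjusted p = 0.0225 in edgeR), and the call was lost without batch 1 or batch 3. The 5% filter counts the cells of both classes together. ALDH1A2 and FOXC1A, detected in 46 and 24 of 70 members, were found in 9.61% and 7.30% of the compared cells. MESPAA and MESPAB, detected in 23 and 48 members, were found in 5.52% and 12.3%. In the remaining cells alone each of these genes lay under 5%. They entered the test only through members, where they were high, so their calls here are no support for the higher direction. Other sparse genes could have entered in the same way, among them NKD1 and LFT1, found in 6.58% and 6.41% of the compared cells. With no filter on low counts, all 41 named calls of this comparison remained.

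In this comparison 7 of 9 tested margin genes rose, with a median log2 difference of 2.94. The remaining cells were picked by low TA, itself a margin gene, so this share is no separate support for the name of the members. Of all genes tested here, 0.895% were called higher and 0.249% lower, with a median of -0.08. SEBOX, a homeobox gene of the mix family, was at 1.48, 2.04 and 1.47 UMIs per 10000 in members and at 0.0950, 0.104 and 0.155 in remaining cells, a log2 difference of 3.86 (SE 0.36, adjusted p = 1.38e-05 in edgeR). Of 18 tested FGF genes, 4 rose and 1 fell. FGF8A, an FGF ligand of the margin, was at 0.996, 1.74 and 1.34 in members and at 0.0728, 0.126 and 0.140 in remaining cells, a log2 difference of 3.63 (SE 0.37), while the receptor FGFR4 fell by 1.24 (SE 0.26, adjusted p = 0.0243 in edgeR), a call lost without batch 1 and without batch 3. In the Wnt list 8 of 25 rose, among them WNT11 with 4.19 (SE 0.34) and the Wnt feedback gene NKD1 with 3.90 (SE 0.78), whose call was lost with any batch left out. The Nodal antagonist LFT1 was at 1.14, 0.0482 and 0.788 in members and at 0.0273, 0.00638 and 0.0533 in remaining cells. Its log2 difference of 4.28 (SE 0.71, adjusted p = 0.00403 in edgeR) came with overlapping values. Members of batch 2 lay below the remaining cells of batch 3, though members were higher within each batch. The call of LFT1 was lost without batch 1 and without batch 3. NKD1 and LFT1 were found in 6.58% and 6.41% of the compared cells, close to the detection filter. They may have entered the test only through members, so their calls are not taken as support for the higher direction. The count of the Wnt list includes NKD1.

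The BMP and ventral list showed both directions against the remaining cells, with 3 of 24 higher and 1 lower. Over all genes tested these shares were 0.895% and 0.249%. VENT, a ventral homeobox repressor, was at 2.87, 1.59 and 3.22 UMIs per 10000 in members and at 0.796, 0.576 and 0.815 in remaining cells, a log2 difference of 1.81 (SE 0.22). BMP4, a BMP ligand, rose by 0.99 (SE 0.21, adjusted p = 0.0301 in edgeR), a call lost without batch 1 and without batch 3, and VED, another ventral repressor, by 0.72 (SE 0.12) with overlapping values and a call that was lost in DESeq2 and without batch as a block. SOX3 stood at 19.9, 20.03 and 21.1 in remaining cells and was lower in members by 1.65 (SE 0.15) on the log2 scale. In each batch SOX3 was thus highest in remaining cells, lower in reference cells and lowest in members. GADD45BA was the single gene of 18 p53 and stress genes that passed, with a log2 difference of 1.23 (SE 0.24), and it did not pass without batch 1.

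Members differed among themselves along the level of MSGN1. The 11 members with 2 to 3 MSGN1 UMIs, the 29 with 4 to 7 and the 30 with 8 or more had median depths of 39099, 41640 and 41365.5 UMIs. In these ranges SOX3 stood at 15.8, 9.62 and 1.33 UMIs per 10000, SOX19A at 7.23, 3.22 and 0.984 and CXCR4B at 9.02, 5.62 and 2.12. OSR1 stood at 1.64, 5.38 and 9.47, SNAI1A at 5.77, 12.8 and 18.7, GATA5 at 1.29, 2.45 and 6.09, APLNRB at 3.38, 4.83 and 10.6 and ALDH1A2 at 0.378, 0.902 and 2.54. MESPAB was similar in the lower ranges and high in the last, at 1.11, 1.02 and 3.53, and it was detected in all 30 members of that range. The ranges were set on a gene that chose the cells and after the data were seen, and these values carry no test.

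Within batches, SOX3 and OSR1 kept this order, while APLNRB in batch 1 was at 1.73, 1.30 and 5.51 UMIs per 10000 in the 3 ranges. The ranges held 2, 6 and 6 members in batch 1, 0, 6 and 5 in batch 2 and 9, 17 and 19 in batch 3. Values of the low range in batch 1 thus rest on 2 cells. SOX3 was at 24.5, 14.03 and 0.701 UMIs per 10000 in the 3 ranges of batch 1, at 7.68 and 0.808 in the upper ranges of batch 2, which had no member with 2 to 3 UMIs, and at 13.7, 7.40 and 1.90 in batch 3. OSR1 was at 0.266, 2.505 and 8.92 in batch 1, 6.67 and 11.8 in batch 2 and 1.96, 6.83 and 8.84 in batch 3. Members of the low range were therefore nearer to the reference level of SOX3 than members of the high range. In batch 1 the median depth was 37551.5, 64604.5 and 67704.5 UMIs in the 3 ranges, so MSGN1 UMIs moved with depth there, and in batch 3 it was 39099, 32665 and 35617.

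**Figure D4:**
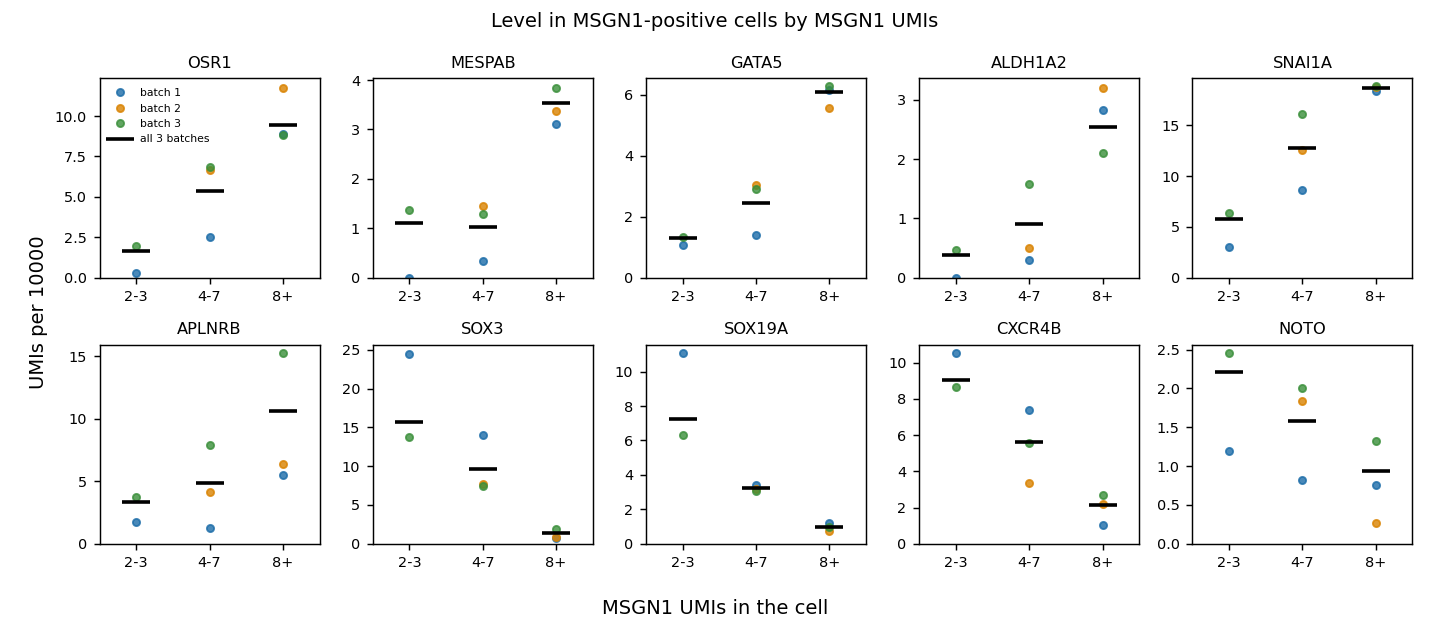
UMIs per 10000 of 10 genes in members with 2 to 3, 4 to 7 and 8 or more MSGN1 UMIs, 1 point a batch, with a bar for all 3 batches together. The bars of OSR1, GATA5, SNAI1A and APLNRB climb from left to right, and those of SOX3, SOX19A, CXCR4B and NOTO descend.

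Across the 70 members, which share libraries and differ in depth, OSR1 ran with ALDH1A2 (Spearman's rho 0.66) and APLNRB (0.66) and against SOX3 (-0.65). In the 45 members of batch 3 these values were 0.70, 0.69 and -0.63. GATA5 ran with APLNRB (0.61), and EVE1, a homeobox gene of the ventral margin, with CDX4, a caudal gene of the posterior body (0.58). These correlations are over log2(1 + UMIs per 10000) in cells and are descriptions only. OSR1 was detected in 63 members and SOX3 in 61, and 54 members had UMIs of both while 0 had neither. With detection this frequent, 54 is the smallest overlap possible, so it does not show whether the genes exclude each other.

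**Figure D5:**
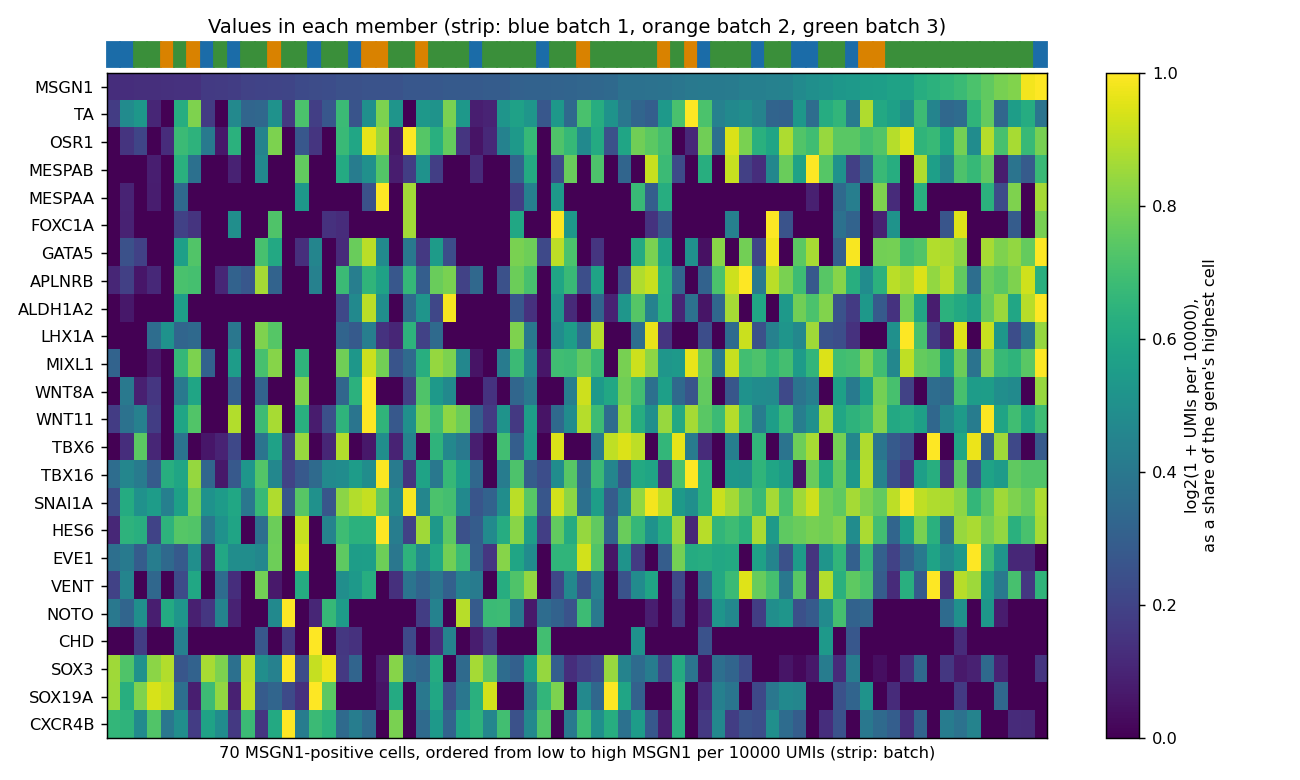
Log2(1 + UMIs per 10000) of 24 genes in each of the 70 members, as a share of the gene's highest cell, with cells ordered from low to high MSGN1 and a strip that gives the batch. SOX3, SOX19A and CXCR4B are bright on the left, and OSR1, GATA5 and APLNRB are bright towards the right.

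Single genes were uneven over the members. SNAI1A was detected in all 70 members, from 1.36 to 39.5 UMIs per 10000 with a median of 14.8. WNT11 was detected in 65 and EVE1 in 63, and their highest cells stood at 38.2 and 49.6. CHD, a BMP antagonist of the organizer, was detected in 18 members, and SZL, a ventral gene, in 6, where 5 cells held 98.1% of its UMIs. NOTO, CHD and SZL thus each marked some members and none marked them all.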

How the data were processed

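The deposited table holds raw UMI counts for 13902 genes in 1152 wells, as the authors made it from sequenced 5′ ends with tags of 5 random bases, per the labels' protocols. Bowtie and the build Zv9 are named in the submitters' processing notes, and the aligner's version is not given in the sources used here. All columns were matched to samples by their titles. Wells with at least 2000 detected genes were kept. The UMIs of each class were added up within each batch, and the resulting 6 totals were tested with edgeR 4.0.16 in R 4.3.3 (quasi-likelihood, legacy setting, TMM, batch as a block because both classes come from the same batches, two-sided). Genes with a UMI in at least 5% of compared cells were tested, MSGN1, TA, SOX32 and GSC were not, and p-values were Benjamini-Hochberg adjusted over all genes tested with a threshold of 0.05. An SE is the log2 difference divided by the square root of F. Levels are UMIs per 10000 of a class and batch. DESeq2 1.42.0 was an alternative. Totals per member ranged from 12906 to 129936 UMIs, and with 5 random bases counts of abundant genes can be compressed. No doublet caller was run, since cells were picked by hand under a microscope, and 1 member had over 5000 detected genes. The fit was tested on simulated sums.

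Members and the 18 gene lists were chosen with earlier results of these data known, and so were the markers. Named genes are the 12 highest and 12 lowest called differences against the reference (9 were called lower) and the 6 highest and 6 lowest against the remaining cells, with the same direction in 3 batches and clone names skipped, up to 4 called genes of each list, or up to 2 of the highest level in a list without calls, the markers and the genes of the rule. A gene that this choice names is not reported here. Genes described only by their spread or level over members were chosen after their values were seen. A planned split of members by TA could not be fitted, because only 4 members had TA at 0 or 1 UMI and none of them was in batch 1. Alternatives added after seeing the data were leaving out the closest pair of wells, TA at 10 or more in both classes, edgeR with bias-adjusted deviances, and the rule on thinned cells.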

Additional observations from a re-analysis of the deposited data

Results flagged for a closer look

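Among the wells left out for having under 2000 detected genes, 9 held MSGN1 UMIs and 5 met the gene rule on MSGN1, SOX32 and GSC. They drew attention as signal outside the cells compared, with at most 5 MSGN1 UMIs in a well and a median total of 4229.5 UMIs over all wells left out.

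A further 25 kept cells had MSGN1 at 2 or more UMIs together with SOX32 or GSC and entered neither comparison. SOX32 was detected in 21 of them, GSC in 10 and both in 6. Together they had MSGN1 at 1.69, OSR1 at 4.55, GATA5 at 5.79, SOX3 at 5.66, NOTO at 3.11 and CHD at 2.20 UMIs per 10000. Their median depth was 58372 UMIs against 41376.5 in members. MESPAA, MESPAB and FOXC1A stood at 1.18, 1.44 and 0.720 and were detected in 8, 18 and 11 of the 25 cells. SNAI1A stood at 18.8 and ALDH1A2 at 0.660. Transcripts of these genes were thus not particular to the members. The 10 cells with GSC had NOTO at 5.96 and CHD at 4.02 UMIs per 10000. The difference from the members was not tested.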

How the results depend on the processing

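Against the reference 40 genes were higher and 9 lower. Without the replicate block these counts were 23 and 0, and with no filter on low counts 19 genes were lower. Leaving out each batch in turn gave 18 to 51 higher and 3 to 16 lower genes, with the lowest counts without batch 3 (18 and 3) and 15 lower genes without batch 2. Against the remaining cells 20 genes were lower, and this became 5 without the replicate block, 33 in DESeq2 and 44 with no filter on low counts. The overall share of 7.0% became 3.32% when the rule was applied to cells thinned to 10000 UMIs (6, 4 and 23 members in batches 1, 2 and 3), and 3.89% to 8.58% with each batch left out. The causes were not tested. With no filter on low counts the median log2 difference of all genes moved from -0.10 to -0.32 against the reference and from -0.08 to -0.34 against the remaining cells.

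No result that passed or newly passed changed its sign under the alternatives run. Of the named genes called against the reference, 17 of 35 lost the call without the replicate block, 18 without batch 3 and at most 9 under any other alternative. Against the remaining cells these were 7 of 41, 6, and at most 8, which was without batch 1. OSR1, MESPAB, GATA5, ALDH1A2, APLNRB, WNT8A, DKK1B, ZIC2A, MIXL1, SNAI1A, FSCN1A, FLRT3 and IRX7 passed against the reference under all 17 alternatives. Batch 2 has 11 members, and FOXC1A did not pass against the reference, which does not show that it was equal.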
